A study of Homo sapiens with 38 samples.

Results

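The comparison described here is that of 24 h against 8 h of beta-catenin induction in H9, a human embryonic stem cell line, with 2 libraries at each hour. The 4 libraries were taken from the series by their labels, out of 38 in all, and every gene of the table was considered: 24304 of 43412 genes passed the filter on low counts and were tested. All 4 cultures were H9 cells that carry a stably integrated transgene for deltaN90 beta-catenin under doxycycline control, and all 4 received doxycycline at 1 µg/ml. The labels set the groups apart only by the time of doxycycline, 8 h or 24 h. Libraries of the same line at 0 h and 16 h give the course before and between. The same 2 hours of H9 cells treated with CHIR99021, an inhibitor of the kinase GSK3, at 10 µM, or with recombinant Wnt3a at 240 ng/ml, serve for comparison. The labels call the 2 libraries of an hour biological replicates 1 and 2. Whether the transgenic line is 1 clone, and whether these replicates came from separate cultures, is not given in the sources used here. The p-values therefore measure the spread between these libraries only. No culture without doxycycline at 24 h was used, so the effect of beta-catenin over time and the effect of time in culture cannot be told apart.

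Beta-catenin is the transcriptional arm of WNT signalling. Without a WNT signal, GSK3 phosphorylates its N-terminal tail and the protein is degraded. The deltaN90 form lacks that tail, escapes degradation, enters the nucleus and acts with TCF and LEF factors on target genes, among them inhibitors of the pathway itself. In pluripotent cells and in the epiblast of the embryo this activity is known to start the primitive streak programme, and caudal homeobox (CDX) and HOX genes follow in posterior cells.

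In units of 1e6 counts (M), the 8 h libraries held 40.7 M and 10.7 M estimated counts and the 24 h libraries 32.9 M and 45.2 M counts. Cytosolic ribosomal RNA took 60.4% of 24 h replicate 1, against 14.4% of 24 h replicate 2 and 16.0% and 18.7% of the 8 h libraries; the median over all 37 distinct libraries was 5.15%. Outside ribosomal RNA, 24 h replicate 1 still held 13.0 M counts and 8 h replicate 2 held 8.73 M counts. Levels are given as CPM, that is counts per M of library total, after TMM scaling, which sets libraries on a common scale from the bulk of genes, in the order replicate 1, replicate 2. A gene is called where edgeR's quasi-likelihood test gave an adjusted p (Benjamini-Hochberg over all 24304 genes) below 0.05. Log2 changes are 24 h minus 8 h, followed by their standard error.

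Of the 24304 genes tested, 2947 were called, or 12.1%: 1351 were higher at 24 h (5.56%) and 1596 lower (6.57%). At least a 2-fold change was seen in 454 of the higher and 461 of the lower genes, and the median change over all genes was 0.02. With 1 library left out, 1771 genes were called without 24 h replicate 1, 1457 without 24 h replicate 2, 1908 without 8 h replicate 1 and 1809 without 8 h replicate 2. Of the 1771 genes called without the library rich in ribosomal RNA, 1711 were among the 2947. Leaving out a library leaves its group with 1, so a call can be lost at a change of the same size. At the threshold, MIR219A2 (2.05) and KRT8 (-0.60) were the last genes called, at adjusted p of 0.0498 and 0.0499, and SSR3 (-0.34) and CHKB (0.52) the first not called, at 0.05004 and 0.05005, all by edgeR.

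**Figure D1:**
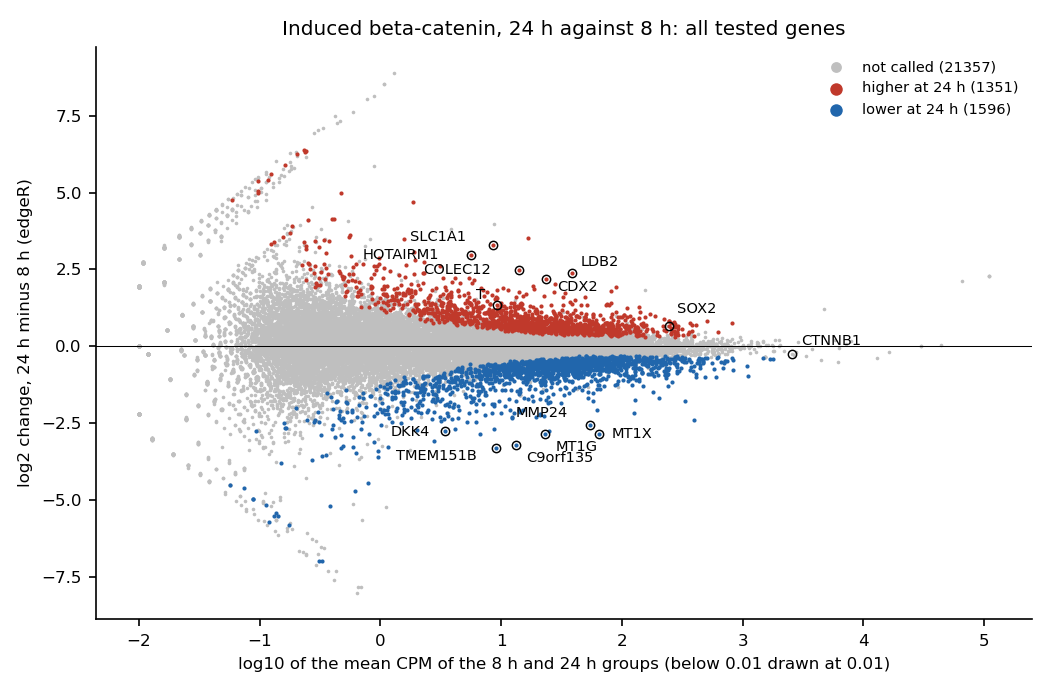
Each point is 1 of the 24304 tested genes; the x axis is the log10 of its mean CPM over the 8 h and 24 h groups and the y axis its log2 change, 24 h minus 8 h, from edgeR. The 1351 genes called higher (red) lie above 0 and the 1596 called lower (blue) below it, with SLC1A1 and LDB2 among the upper and TMEM151B and C9orf135 among the lower named genes.

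The targeted gene came first. CTNNB1, the gene of beta-catenin, stood at 651.9 and 750.1 CPM at 0 h, 2907.6 and 2692.9 at 8 h, 2432.5 and 2463.3 at 16 h and 2351.8 and 2394.9 at 24 h. Every induced library lay above both 0 h libraries. The 24 h libraries lay below both 8 h libraries, but the difference did not pass the test (-0.24 ± 0.10, adjusted p = 0.132, edgeR). CTNNB1 passed, as lower at 24 h, in 5 of 15 alternatives, among them DESeq2 (-0.25, adjusted p = 0.00122), RLE size factors (adjusted p = 0.0218, edgeR) and scaling on protein-coding genes (adjusted p = 0.0415, edgeR). Reads of the transgene and of the cells' own CTNNB1 are summed in these gene counts.

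Promoter sequence is shown for 3 genes described below that were called higher at 24 h, picked because their promoters hold CTTTGA, the start of the sequence that TCF and LEF factors are known to bind. The windows lie before the start site, with up to 50 bases on each side of the match, and run 5′ to 3′ on the strand of the gene (RefSeq, GRCh38.p14). Capitals mark CTTTGA or its reverse complement, TCAAAG. CDX2 and HOXB1 have 1 match each in the 250 bases before the start, on the minus strands of chr13:27969498-27969565 and chr17:48531176-48531261, and DKK1 has 2, of which the one in chr10:52314082-52314187 on the plus strand is printed.
CDX2: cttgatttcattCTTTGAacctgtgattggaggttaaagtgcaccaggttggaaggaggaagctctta
HOXB1: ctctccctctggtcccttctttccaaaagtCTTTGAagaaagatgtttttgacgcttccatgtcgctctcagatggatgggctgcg
DKK1: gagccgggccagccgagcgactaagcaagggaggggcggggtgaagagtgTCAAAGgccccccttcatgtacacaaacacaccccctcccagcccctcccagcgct
Over all genes tested with a promoter in the table, 1758 of 13551 (13.0%) held CTTTGA on either strand in the 300 bases around at least 1 start site. The share was 154 of 989 (15.6%) among genes called higher and 142 of 1210 (11.7%) among genes called lower, and 12.9% of all 35116 promoter windows. A match is a description of these letters and not a bound site.

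Genes of a WNT list, which holds feedback genes, direct targets and CTNNB1 itself, moved in both directions between 8 h and 24 h. Of 25 members tested, 5 were higher (APCDD1, DKK1, NKD1, LEF1, TNFRSF19) and 5 lower (DKK4, SFRP1, TCF7, BAMBI, CCND1), with a median change of 0.11. APCDD1, a membrane inhibitor of WNT receptors, rose from 8.68 and 7.07 CPM to 33.2 and 25.2 (1.85 ± 0.18, adjusted p = 2.39e-08, edgeR), and its 16 h libraries lay between at 16.9 and 16.3. DKK4, a secreted antagonist of the WNT co-receptors, was at 0 counts at 0 h, at 6.01 and 5.99 CPM at 8 h and at 0.703 and 0.953 at 24 h. It fell by 2.77 on the log2 scale (SE 0.37, adjusted p = 1.77e-05, edgeR), with 16 h again between. SFRP1, which binds WNT proteins outside the cell, fell from 294 and 239 CPM to 95.8 and 95.8, a log2 change of -1.48 ± 0.12. KREMEN2, a receptor for Dickkopf proteins that is not in the list, fell from 13.7 and 7.37 CPM to 1.92 and 1.95. The transcription factor TCF7 fell from 38.5 and 23.6 CPM to 18.2 and 10.9 (-1.14), but its call was lost without 24 h replicate 2 (-0.79) or without 8 h replicate 1 (-0.72).

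Some other members of this list lost their call with 1 library left out or did not pass. NKD1, an inhibitor inside the cell, rose from 77.5 and 59.7 CPM to 133 and 144 (1.00 ± 0.26), a call lost without 24 h replicate 2 (0.95) or 8 h replicate 2 (0.84). LEF1, a partner of beta-catenin on DNA, stood at 22.8 and 16.6 CPM at 8 h and 38.2 and 27.6 at 24 h (0.70 ± 0.23, adjusted p = 0.0458, edgeR), and its call was lost in 9 of 15 alternatives, with RLE size factors (adjusted p = 0.0537, edgeR) and without 24 h replicate 1 (0.43) or 8 h replicate 2 (0.52) among them. DKK1 went from 1.66 and 1.08 CPM to 3.84 and 3.92 (1.36 ± 0.40); leaving out any 1 of the 4 libraries ended its call, with changes of 1.22 to 1.84. AXIN2, a scaffold of the destruction complex, was at 171 and 147 CPM at 8 h and 230 and 177 at 24 h, and SP5 at 66.2 and 47.7 against 104 and 82.8. For both the 24 h libraries lay above both 8 h libraries, and neither passed the test (AXIN2 adjusted p = 0.227, SP5 adjusted p = 0.0588, edgeR). SP5 passed in 5 of 15 alternatives, among them DESeq2 (adjusted p = 0.0495) and only the groups compared (adjusted p = 0.0422, edgeR). The list gave 2 higher and 3 lower genes without 24 h replicate 1, 4 and 3 without 24 h replicate 2, 5 and 2 without 8 h replicate 1, and 1 and 3 without 8 h replicate 2. Its median was -0.04 without 24 h replicate 1, 0.24 without 24 h replicate 2, 0.47 without 8 h replicate 1 and -0.26 without 8 h replicate 2.

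Among the 13 WNT ligands tested, WNT5B rose from 18.0 and 13.1 CPM to 36.4 and 27.0 (0.98 ± 0.14, adjusted p = 1.56e-05, edgeR). WNT11 went from 0.179 and 0.393 CPM to 0.959 and 1.13, and WNT9A from 4.197 and 3.93 CPM to 2.05 and 1.80. WNT11 lost its call without either 24 h library or without 8 h replicate 1 (1.41 to 2.17), and WNT9A without any 1 of the 4 libraries (-1.21 to -0.99). The median of the 13 was -0.25, and it was -0.45 without 24 h replicate 1, 0.13 without 24 h replicate 2, 0.57 without 8 h replicate 1 and -0.56 without 8 h replicate 2.

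CDX2 and RNAs of the HOX clusters were among the rises. HOTAIRM1, a long non-coding RNA of the HOXA cluster, rose from 1.43 and 0.884 CPM to 11.5 and 8.49 (2.97 ± 0.31). The strand setting of the counting is not given in the sources used here, so reads from stretches that genes share on opposite strands cannot be told apart, and the counts of HOTAIRM1 are uncertain. CDX2, a caudal homeobox factor, was at 0 counts at 0 h, at 9.95 and 6.19 CPM at 8 h, at 5.998 and 10.1 at 16 h and at 46.0 and 32.7 at 24 h (2.20 ± 0.27, adjusted p = 6.74e-06, edgeR). For HOTAIRM1 and CDX2 alike, both 24 h libraries lay above every library of the earlier hours.

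Of 29 HOX genes in the table, 22 were tested, and 8 of the 29 had 0 counts in all 4 libraries. Of the 22, 4 were called higher (18.2%, against 5.56% of all genes tested) and none lower. HOXB1 rose from 0.486 and 0.295 CPM to 3.32 and 2.45 (2.65 ± 0.33, adjusted p = 1.89e-06, edgeR). HOXA2 went from 0.333 and 0 CPM to 1.15 and 0.997, a call lost without 8 h replicate 2 (1.66). HOXB2 had 0 counts at 8 h and 10 counts in all at 24 h, at least 2.66-fold higher against a floor of 3 counts over the 8 h group; its call was lost without 8 h replicate 1. Higher calls in the list numbered 3 to 5 with 1 library left out. Its median of 0.68 was 0 without either 24 h library, 0.92 without 8 h replicate 1 and 0.36 without 8 h replicate 2. HOXB2 at its bound still lies above the median, which is then the same.

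Genes of the primitive streak and mesendoderm gave 4 higher and 2 lower of 24 tested, with a median of 0.28. The median was 0.08 without 24 h replicate 1, 0.48 without 24 h replicate 2 and 0.66 without 8 h replicate 1, and the lower calls numbered 0 without 24 h replicate 2 and 1 without 8 h replicate 1. T (brachyury), the defining factor of the streak, stood at 0.294 and 0 CPM at 0 h, 6.47 and 3.24 at 8 h, 16.6 and 16.8 at 16 h and 15.0 and 12.3 at 24 h. It rose by 1.34 ± 0.21 on the log2 scale (adjusted p = 4.53e-05, edgeR). CDX1 rose from 0.896 and 0.590 CPM to 5.24 and 2.36 (2.06 ± 0.36). EVX1, a homeobox gene of the posterior streak, went from 6.60 and 1.87 CPM to 18.5 and 10.3, a call lost without 24 h replicate 1 (1.08) or 8 h replicate 2 (1.10). NKX1-2 fell from 194 and 182 CPM to 121 and 86.2 (-0.86), a call lost without 24 h replicate 2 (-0.63). CER1, a secreted inhibitor of NODAL, BMP and WNT, fell from 1.89 and 2.16 CPM to 0.511 and 0.672 (-1.65), a call lost without 24 h replicate 2 (-1.93) or 8 h replicate 1 (-1.78). The T-box factor EOMES was at 18.2 and 12.4 CPM at 8 h and 24.6 and 20.9 at 24 h, and MIXL1 at 6.58 and 5.90 against 13.9 and 6.63; neither passed (adjusted p = 0.411 and 0.385, edgeR).

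Several genes of this list were highest at 16 h, between the 2 hours compared. Tested over the whole table, 496 genes (2.04%) were called at 16 h against the mean of 8 h and 24 h, 234 higher and 262 lower. This contrast was added after seeing the data. It also calls a gene that had reached its 24 h level by 16 h, so a call alone does not mark a peak or a trough. Without 16 h replicate 1 it gave 80 genes, without 16 h replicate 2 151, without 8 h replicate 1 246 and without 24 h replicate 1 323. NODAL, the signal that patterns the streak, stood at 19.3 and 24.9 CPM at 8 h, 76.9 and 74.1 at 16 h and 15.6 and 14.8 at 24 h (2.05 ± 0.18 for 16 h, adjusted p = 6.68e-08, edgeR). Its 24 h and 8 h levels did not differ by the test (-0.52 ± 0.23, adjusted p = 0.142, edgeR). LEFTY1, a secreted NODAL inhibitor and NODAL target, was at 2.02 and 1.77 CPM at 8 h, 12.7 and 11.7 at 16 h and 0.384 and 0.845 at 24 h, 3.39 ± 0.28 above the mean of the other hours. Of the 15 genes of the NODAL and ACTIVIN list, 7 were called higher at 16 h (among them NODAL, LEFTY1, LEFTY2, CER1, SKIL and MIXL1) and FST lower. Without 16 h replicate 1 the calls of LEFTY2 (1.78), CER1 (1.66) and MIXL1 (1.41) were lost; MIXL1 lost its call also without 16 h replicate 2 (1.50), 24 h replicate 2 (1.20) or 8 h replicate 1 (1.51). FGF8, a secreted signal of the streak, was at 0 counts at 0 h, at 1.049 and 0.983 CPM at 8 h, 4.70 and 5.24 at 16 h and 0.895 and 0.802 at 24 h (2.40 ± 0.26 for 16 h, adjusted p = 2.28e-06, edgeR). Among other genes with at least 5 CPM on average at one of the 3 hours, the largest positive values of this contrast were in LRRN2 (2.17), NKILA (2.12) and the glutamate transporter gene SLC1A1 (1.83). The most negative were in PCDH8 (-2.37), MSX1 (-2.22), ZIC1 (-1.68), BCL9L (-1.50) and FAM20A (-1.49). Of these genes, NKILA (2.07), PCDH8 (-1.91), MSX1 (-1.67), ZIC1 (-1.65), BCL9L (-1.76) and FAM20A (-0.96) were not called without 16 h replicate 1. PCDH8 (-2.68) and BCL9L (-1.33) were also lost without 16 h replicate 2, MSX1 (-1.62) and BCL9L (-1.25) without 8 h replicate 1, and BCL9L (-1.28) without 24 h replicate 1.

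**Figure D2:**
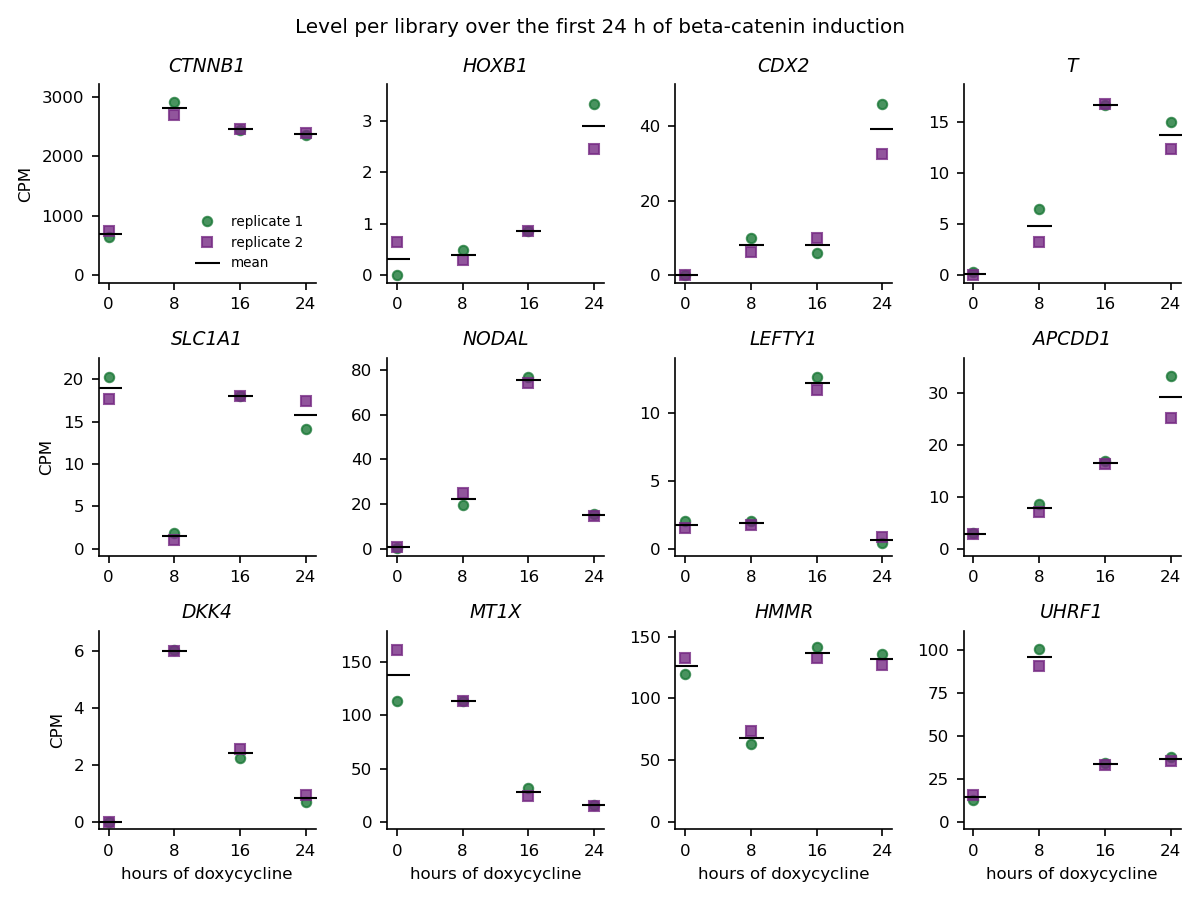
CPM of 12 genes (y axis, each panel from 0) against hours of doxycycline (x axis), with 1 point per library and a bar at the mean of the 2. HOXB1 and CDX2 are highest at 24 h in both libraries, NODAL and LEFTY1 peak at 16 h, DKK4 is highest at 8 h, and SLC1A1 and HMMR are lowest at 8 h among the induced hours.

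Between the ends of the step itself, the NODAL and ACTIVIN list gave 2 higher genes (FST, FOXH1) and 4 lower (CFC1, CER1, LEFTY1, GDF3) of 15, with a median of -0.26. FST, the activin-binding protein follistatin, went from 317 and 262 CPM to 481 and 460 (0.70 ± 0.15), a call lost without 8 h replicate 2 (0.57). FOXH1, a DNA-binding partner of SMAD proteins, went from 47.1 and 34.4 CPM to 70.5 and 53.2 (0.58), lost without 24 h replicate 1 (0.34) or 8 h replicate 2 (0.39). LEFTY1 fell by 1.47, lost without 24 h replicate 1 (-1.21) or 8 h replicate 1 (-1.34). GDF3 went from 1.049 and 2.16 CPM to 0.384 and 0.650. Its call was lost without either 24 h library or without 8 h replicate 2 (-1.87 to -0.89). CFC1, a NODAL co-receptor gene, had 37 counts at 8 h and 0 at 24 h, at least 15.5-fold lower against a floor of 3 counts over the 24 h group; it has a near-identical copy in the genome, so its counts are uncertain.

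SLC1A1 rose from 1.89 and 0.983 CPM to 14.1 and 17.4 (3.29 ± 0.28, adjusted p = 2.12e-09, edgeR), but had stood at 20.3 and 17.7 CPM at 0 h. LDB2, a cofactor of LIM-domain transcription factors, had the same shape: 87.0 and 100 CPM at 0 h, 12.2 and 12.6 at 8 h and 67.7 and 62.8 at 24 h (2.40 ± 0.18). COLEC12, a scavenger receptor, climbed through every hour, from 2.35 and 1.82 CPM at 0 h to 4.17 and 4.52, 10.1 and 12.7, and 23.5 and 24.4 (2.48 ± 0.20 for 24 h against 8 h). SHISA3, an inhibitor of WNT and FGF receptor maturation, rose from 0.972 and 0.688 CPM to 5.88 and 4.98 (2.60 ± 0.33). EGFLAM, an extracellular matrix protein, rose by 2.23 and RGS6, a regulator of G-protein signalling, by 2.09. The non-coding RNAs RP11-82L7.4 and RP11-415G4.1 rose by 2.23 and 2.15. The calls of these 8 genes held with any 1 of the 4 libraries left out.

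On the other side, TMEM151B fell from 18.1 and 14.5 CPM to 1.47 and 1.80 (-3.29 ± 0.28) and C9orf135 from 21.8 and 26.3 CPM to 2.30 and 2.77 (-3.21 ± 0.24). MMP24, a membrane-bound metalloproteinase, fell from 103 and 84.0 CPM to 14.6 and 17.0 (-2.56 ± 0.19, adjusted p = 2.81e-10, edgeR). PAPPA, a protease of IGF-binding proteins, was at 1.18 and 1.28 CPM at 0 h, 17.9 and 12.5 at 8 h and 2.56 and 2.23 at 24 h. APBA1, a neuronal adaptor protein, fell by 2.68 and VGF, a precursor of secreted peptides, by 2.46. The metallothionein genes MT1X and MT1G, whose proteins bind zinc and copper, fell from 113 and 113 CPM to 16.1 and 15.3 (-2.86 ± 0.21) and from 45.2 and 35.5 CPM to 6.20 and 5.18 (-2.85 ± 0.21). ERVK-28, an endogenous retrovirus locus, and FCGR2A, an Fc receptor gene, fell by 2.84 and 2.75. Metallothionein genes, ERVK-28 and FCGR2A have close relatives in the genome, so the share of counts that belongs to each is uncertain. All these calls held with any 1 of the 4 libraries left out; that of FCGR2A was lost with only the groups compared in the fit (-2.76, adjusted p = 0.0974, edgeR).

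Pluripotency genes gave 10 lower and 2 higher calls of 24 tested, with a median of -0.28. The core factors were not among the falls. POU5F1 (OCT4) was at 806.9 and 847.6 CPM at 8 h and 710.0 and 802.9 at 24 h, below both 8 h libraries but not called (-0.13, adjusted p = 0.509, edgeR). NANOG was at 49.0 and 71.8 CPM against 51.2 and 58.9, overlapping between the hours (adjusted p = 0.836, edgeR), after 124 and 116 at 16 h. SOX2 went from 182 and 196 CPM to 325 and 279 (0.68 ± 0.15, adjusted p = 0.00234, edgeR), but its call was lost without 24 h replicate 1 (0.53). These 3 markers of embryonic stem cells, and LIN28A, were present in all 4 libraries. LIN28A was 1 of the 10 lower calls, at 1750 and 1575 CPM at 8 h and 1368 and 1214 at 24 h.

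The largest called falls of this list were UTF1, L1TD1 and THY1. L1TD1, an RNA-binding protein of stem cells, was at 175 and 227 CPM at 0 h and fell from 470 and 567 at 8 h to 158 and 145 at 24 h (-1.77 ± 0.19, adjusted p = 3.82e-07, edgeR). THY1, a surface glycoprotein, fell from 53.8 and 73.6 CPM to 23.2 and 26.7 (-1.33 ± 0.19). UTF1 was low throughout, at 1.25 and 0.590 CPM against 0.256 and 0.217, and lost its call without either 24 h library or without 8 h replicate 1 (-2.19 to -1.33). ZIC2 went up from 68.9 and 36.9 CPM to 90.2 and 94.0, a call lost without either 24 h library or without 8 h replicate 2 (0.42 to 0.78). Lower calls numbered 7 without either 24 h library and 8 without either 8 h library; higher calls were 0 without 24 h replicate 1, 1 without 24 h replicate 2, 4 without 8 h replicate 1 and 1 without 8 h replicate 2.

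Markers of other cell types were called in both directions. Definitive endoderm gave 2 lower calls of 17 (CER1, CXCR4; median 0.28), presomitic and somitic mesoderm 1 higher (DLL1) and 1 lower (HES7) of 14 (0.12), lateral and cardiac mesoderm 2 lower of 14 (HAND1, ISL1; -0.41) and endothelial and blood genes none of 16 (0.20). Neural ectoderm gave 2 higher (GBX2, SOX3) and 1 lower (NES) of 16 (0.07), neural crest 2 higher (MSX1, SOX9) and 1 lower (MSX2) of 12 (-0.24), and amnion and trophoblast 1 higher (CDX2) and 3 lower (ISL1, IGFBP3, HEY1) of 13 (-1.64). The signs of these medians changed with 1 library left out for definitive endoderm (-0.17 without 24 h replicate 1), lateral mesoderm (0.27 without 8 h replicate 1) and neural ectoderm (-0.61 without 24 h replicate 1, -0.11 without 8 h replicate 2). That of presomitic and somitic mesoderm was 0 without 24 h replicate 2, -0.00135 without 24 h replicate 1 and 0.000462 without 8 h replicate 2. Neural crest gave -0.14 without 24 h replicate 2 and -0.13 without 8 h replicate 2, and endothelial and blood genes 0.37 without 24 h replicate 2 and 0.45 without 8 h replicate 1. Lateral mesoderm had no call without 24 h replicate 2 or 8 h replicate 1. The median of amnion and trophoblast was -0.22 without 8 h replicate 1 (1 lower call, as without 24 h replicate 2), and -0.15 with only the arms and -0.25 with only the groups compared. Summed levels at 8 h and 24 h overlapped for definitive endoderm, at 58.9 to 69.2 and 65.1 to 65.2 CPM, and for lateral mesoderm, at 13.2 to 15.1 and 14.3 to 15.1 CPM. Endothelial and blood markers summed to 85.9 and 104 CPM at 8 h and 76.1 and 77.0 at 24 h. In such mixed RNA, fewer cells of a type and less RNA per cell cannot be told apart.

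NES, an intermediate filament of neural progenitors that stem cell cultures also express, fell from 364 and 355 CPM to 170 and 155 (-1.15 ± 0.13, adjusted p = 2.37e-07, edgeR). IGFBP3 fell from 14.2 and 13.5 CPM to 3.32 and 3.83 (-1.94 ± 0.31), and MSX1, a homeobox target of BMP and WNT, rose from 1.36 and 0.491 CPM to 7.67 and 3.64 (2.22 ± 0.36). The calls of these 3 genes held with any 1 of the 4 libraries left out. GBX2, a homeobox gene of posterior neural plate, was at 0 and 0.214 CPM at 0 h and went from 48.6 and 29.9 CPM to 82.9 and 70.4, a call lost without 8 h replicate 2 (0.65). CXCR4 (-1.35) and MSX2 (-1.82) lost theirs without 8 h replicate 1 (-1.03 and -1.31). HAND1, ISL1, HES7, DLL1, SOX3, SOX9 and HEY1 each lost theirs without at least 2 of the 4 libraries, with changes of -2.62 to -1.66 for HAND1, -2.46 to -1.70 for ISL1, -3.22 to -0.79 for HES7, 0.95 to 1.07 for DLL1, 0.47 to 0.70 for SOX3, 0.71 to 0.77 for SOX9 and -1.20 to -1.16 for HEY1.

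Mesenchymal genes gave 6 higher and 0 lower calls of 21, with a median of 0.40; the count was 4 to 6 with 1 library left out. ZEB2, a repressor of epithelial genes, was at 0 and 0.107 CPM at 0 h and rose from 21.8 and 14.0 at 8 h to 56.5 and 37.3 at 24 h (1.34 ± 0.21, adjusted p = 7.16e-05, edgeR). CDH2 (N-cadherin) rose from 38.3 and 37.5 CPM to 81.6 and 73.8 (1.03 ± 0.12) and MMP2, a matrix metalloproteinase, from 28.1 and 32.0 CPM to 70.4 and 45.9 (0.95 ± 0.15). Epithelial junction genes gave 4 higher (CLDN4, CLDN10, DSP, ESRP1) and 6 lower calls of 24, with a median of -0.07. The tight junction genes CLDN6 (310 and 257 CPM to 167 and 157) and CLDN7 (94.1 and 77.6 CPM to 46.5 and 53.8) fell by 0.81 and 0.78. CDH1 (E-cadherin), at 0.14, was not called. The 4 higher calls were each lost without at least 2 of the libraries: CLDN4 (0.63 to 0.79) and ESRP1 (0.28 to 0.45) without any 1 of them, CLDN10 without 24 h replicate 2 (0.58) or 8 h replicate 1 (0.62), and DSP without 24 h replicate 1 (0.41) or 8 h replicate 2 (0.37). Lower calls were 5 without 24 h replicate 1, 3 without 24 h replicate 2 and 4 without either 8 h library.

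Collagens and integrins gave 5 higher and 0 lower calls of 22 (median 0.19), with 4 higher without any 1 of the 4 libraries. COL1A2 rose from 132 and 108 CPM to 198 and 196 (0.71 ± 0.13). ITGA5, a fibronectin receptor subunit, went from 20.8 and 18.4 CPM to 32.5 and 39.7 (0.88), a call lost without 24 h replicate 2 (0.72). ITGA1 went from 3.20 and 3.14 CPM to 7.61 and 6.20 (1.11), lost without 24 h replicate 1 (0.94), 8 h replicate 1 (1.12) or 8 h replicate 2 (1.10).

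Cell cycle genes of opposite phases moved in opposite directions. Of 23 genes of G2 and mitosis, 20 were higher, none was lower and all 23 had positive changes, from 0.26 to 0.96, with a median of 0.66. KIF20A, a mitotic kinesin, rose from 57.3 and 69.2 CPM to 119 and 126 (0.96 ± 0.14), HMMR, a spindle protein, from 63.0 and 73.4 CPM to 136 and 127 (0.95 ± 0.14), and DLGAP5 from 141 and 172 CPM to 290 and 287 (0.89 ± 0.12). Their 16 h libraries were already at 24 h levels: KIF20A stood at 123 and 124 CPM and HMMR at 142 and 132. At 0 h HMMR had been at 120 and 133 CPM. The count of 20 was 14 without 24 h replicate 1, 15 without 24 h replicate 2, 15 without 8 h replicate 1 and 16 without 8 h replicate 2.

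Of 23 genes of S phase, 11 were lower and none higher, with a median of -0.47. UHRF1, which keeps DNA methylation through replication, fell from 100 and 90.8 CPM to 37.6 and 35.5 (-1.39 ± 0.18, adjusted p = 3.08e-06, edgeR); it had been at 12.9 and 15.4 at 0 h. PCNA, the sliding clamp of DNA polymerase, fell from 228 and 266 CPM to 143 and 134.9 (-0.83 ± 0.16) and CLSPN, a replication checkpoint protein, from 50.1 and 51.1 CPM to 28.3 and 27.8 (-0.85 ± 0.17). Without 8 h replicate 1 the count was 7, and without the others 9 or 10. Replication-dependent histone genes gave 1 call of 16 (HIST1H1D, 0.58, lost without any 1 library, 0.54 to 0.63), and none of 34 cytosolic ribosomal protein genes was called (median 0.02, changes from -0.17 to 0.20).

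Of 23 genes of the amino acid response driven by ATF4, 11 were lower and 2 higher, with a median of -0.62; lower calls were 10 to 12 with 1 library left out. ATF5 fell from 27.0 and 19.4 CPM to 5.56 and 5.09 (-2.14 ± 0.25), having been at 6.76 and 6.85 at 0 h. CHAC1, which degrades glutathione, fell from 8.98 and 8.55 CPM to 2.62 and 2.38 (-1.83 ± 0.28), and DDIT3 (CHOP) from 7.45 and 9.24 CPM to 2.49 and 2.77 (-1.63 ± 0.32). DDIT4, an inhibitor of mTORC1, was the exception with 318 and 377 CPM at 0 h, 41.6 and 30.4 at 8 h and 139 and 117 at 24 h (1.81 ± 0.29). VLDLR also went up, from 25.2 and 20.9 CPM to 35.1 and 37.3 (0.64), a call lost without 24 h replicate 2 (0.59) or 8 h replicate 2 (0.52).

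The hypoxia and glycolysis list gave 7 higher and 7 lower calls of 22 (median 0.33). With 1 library left out the higher and lower calls were 5 and 6 without 24 h replicate 1 (median 0.17), 7 and 3 without 24 h replicate 2, 6 and 5 without 8 h replicate 1 and 5 and 5 without 8 h replicate 2. STC1, a secreted glycoprotein, rose from 13.0 and 11.2 CPM to 50.6 and 33.9 (1.77 ± 0.19) and PFKFB4, a regulator of glycolytic flux, from 13.8 and 10.5 CPM to 32.7 and 29.1 (1.31 ± 0.20). ANKRD37 went from 2.38 and 1.77 CPM to 5.88 and 4.38 (1.25), lost without 24 h replicate 1 (1.01), 8 h replicate 1 (1.52) or 8 h replicate 2 (1.09). The glycolytic enzymes PGK1 (977.8 and 1126.8 CPM to 581.0 and 660.0), ENO2 (181 and 142 CPM to 108 and 92.2) and ALDOC (57.1 and 60.9 CPM to 36.1 and 37.3) fell by 0.76, 0.70 and 0.68.

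Cholesterol synthesis gave 7 lower and 1 higher call (TM7SF2) of 25, with a median of -0.35. ACAT2, which joins acetyl groups at the start of the route, fell from 65.9 and 71.3 CPM to 42.3 and 40.4 (-0.73 ± 0.15). LSS went from 68.9 and 65.4 CPM to 40.9 and 46.0, a call lost without any 1 library (-0.72 to -0.58). TM7SF2 (0.67) lost its call without 24 h replicate 2 (0.56) or 8 h replicate 1 (0.66). Lower calls were 3 without 24 h replicate 1 and 2 without any other single library. Of 20 p53 targets, 2 were higher and 2 lower (median 0.10, -0.02 without 24 h replicate 2), or 20% called against 12.1% of all genes tested. CDKN1A (p21) rose from 2.48 and 1.67 CPM to 6.20 and 7.56 (1.65 ± 0.26) and BTG2 from 1.74 and 1.28 CPM to 4.603 and 4.51 (1.50 ± 0.22), while AEN fell by 0.58 and TIGAR by 0.76; TIGAR lost its call without 24 h replicate 2 (-0.71) or 8 h replicate 1 (-0.67).

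**Figure D3:**
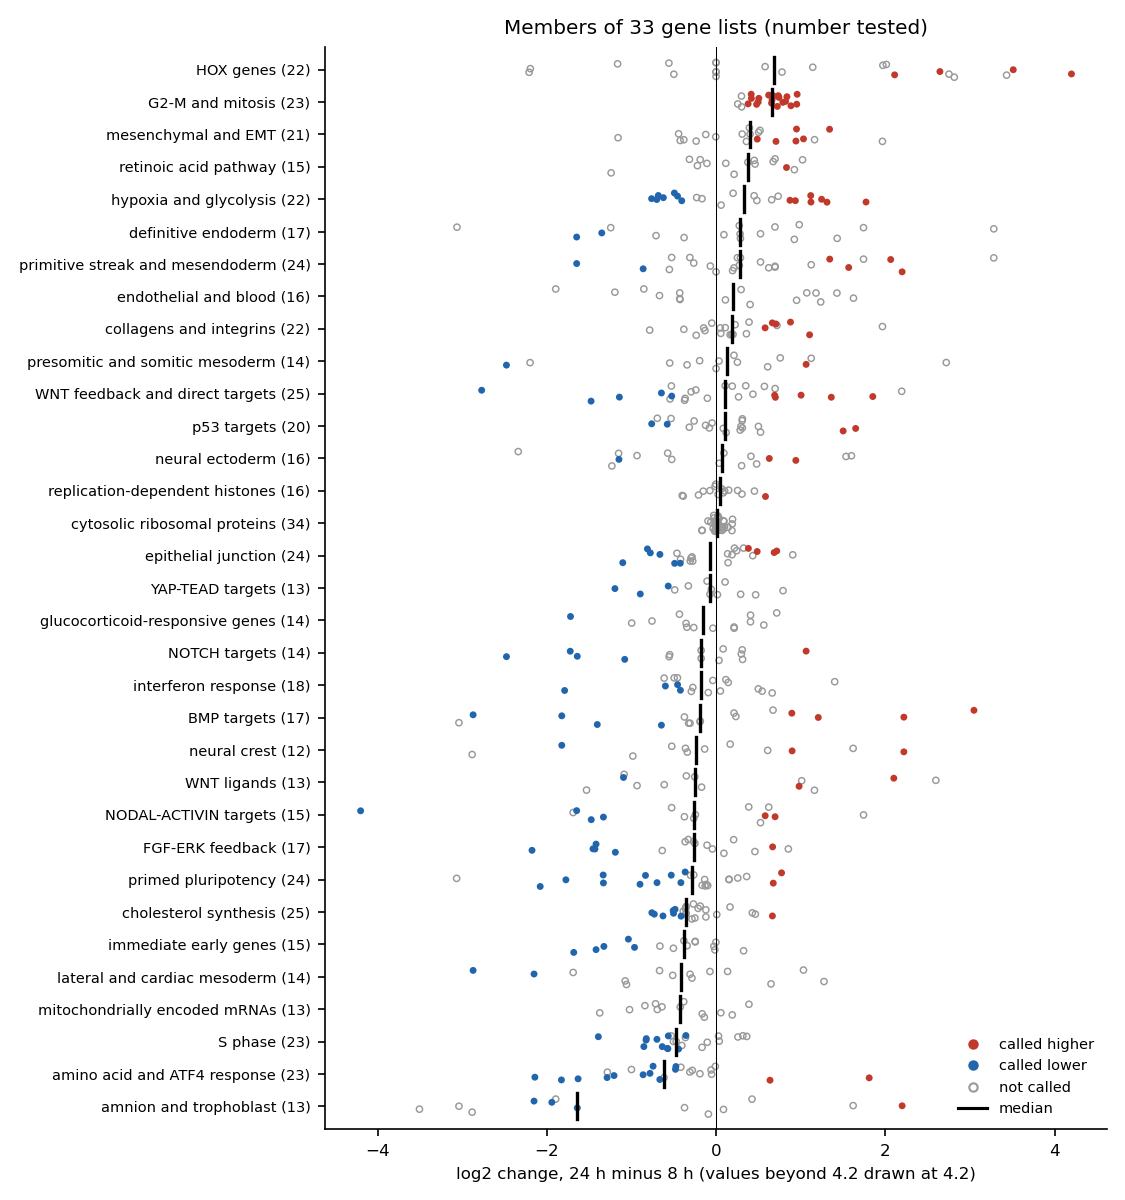
Each point is a tested member of 1 of 33 gene lists (rows, with the number tested), at its log2 change, 24 h minus 8 h, from edgeR (x axis); filled points were called and bars mark the list medians. The 20 called genes of G2 and mitosis lie to the right of 0 and the 11 called genes of S phase to the left, while the 34 ribosomal protein genes lie close to 0.

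The feedback genes of FGF and ERK gave 5 lower and 1 higher call of 17 (median -0.27, and -0.51 without 8 h replicate 1 and -0.17 without 8 h replicate 2). ETV4, an ETS factor, fell from 59.1 and 56.3 CPM to 21.99 and 20.9 (-1.43 ± 0.16) and DUSP5, a phosphatase of ERK, from 16.9 and 23.2 CPM to 6.65 and 7.60 (-1.45 ± 0.25), while PHLDA1 rose from 114 and 123 CPM to 187 and 189 (0.67 ± 0.13). FOSL1 fell from 2.15 and 0.884 CPM to 0.320 and 0.390 (-2.17), a call lost without 8 h replicate 1 (-1.26). Immediate early genes gave 5 lower calls and none higher of 15 (median -0.38), with 2 without 24 h replicate 1, 1 without 24 h replicate 2 or 8 h replicate 1, and 3 without 8 h replicate 2. JUN fell from 8.98 and 11.1 CPM to 3.13 and 4.51 (-1.33 ± 0.24). EGR1 went from 23.2 and 11.4 CPM to 8.76 and 4.94, a call lost without 24 h replicate 2 (-1.02) or 8 h replicate 1 (-0.78), and EGR3 from 2.53 and 1.47 CPM to 0.639 and 0.650, lost without either 24 h library or 8 h replicate 1 (-1.70 to -1.18).

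NOTCH genes gave 4 lower calls (HES7, HES4, HEY1, HEY2) and 1 higher (DLL1) of 14, with a median of -0.18 that was 0.28 without 8 h replicate 1 and -0.52 without 8 h replicate 2. Lower calls were 3 without 24 h replicate 1, 1 without 24 h replicate 2 or 8 h replicate 1, and 5 without 8 h replicate 2. HES4 went from 3.17 and 2.36 CPM to 1.02 and 0.737, a call lost without 24 h replicate 2 or 8 h replicate 1 (-1.46 in both), and HEY2 from 12.7 and 12.6 CPM to 4.73 and 7.02, lost without 24 h replicate 1 (-0.88). BMP genes gave 4 higher (BMPER, MSX1, BMP2, SMAD9) and 4 lower (HAND1, MSX2, ID4, BAMBI) of 17, with a median of -0.19 that was 0.00 without 8 h replicate 1. ID4, an inhibitor of helix-loop-helix factors, went from 11.5 and 11.9 CPM to 5.43 and 3.64 (-1.40), lost without 24 h replicate 2 (-1.10). Of the other BMP genes, only MSX1 held with any 1 of the 4 libraries left out: BMPER, BMP2, SMAD9 and BAMBI each lost their call without at least 3 of them, with changes of 2.61 to 6.96, 0.94 to 1.38, 0.73 to 1.27 and -0.74 to -0.50.

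The retinoic acid list gave 1 higher call and none lower of 15, with a median of 0.38 (0.20 without 24 h replicate 1, 0.19 without 8 h replicate 2). Of all genes tested 12.1% were called, against 6.67% of this list, 23.1% of YAP and TEAD targets and 22.2% of interferon-response genes. YAP and TEAD targets gave 3 lower calls of 13, F3, CYR61 and AXL (median -0.07), and interferon-response genes 4 lower of 18, IFIT3, ISG15, IFITM3 and IFITM1 (-0.18). All 7 calls were lost without at least 2 of the 4 libraries, at -1.26 to -1.16 for F3, -0.87 to -0.81 for CYR61, -0.65 to -0.27 for AXL, -2.10 to -1.34 for IFIT3, -0.76 to -0.50 for ISG15, -0.35 to -0.30 for IFITM3 and -0.49 to -0.35 for IFITM1. Of 14 glucocorticoid-responsive genes, MT2A alone was called, falling from 27.8 and 23.4 CPM to 7.29 and 8.12 (-1.73 ± 0.28). None of the 13 mitochondrially encoded mRNAs was called. Their summed level was 2103 and 744 CPM at 8 h and 1499 and 1097 at 24 h, overlapping between the hours, and their median of -0.42 was -0.97 without 24 h replicate 1, -0.11 without 24 h replicate 2, 0.86 without 8 h replicate 1 and -1.08 without 8 h replicate 2.

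The step from 8 h to 24 h was then set against the same step with CHIR99021, which acts upstream of beta-catenin through GSK3. The 2 steps share no library. Labels of the CHIR99021 and Wnt3a cultures name neither transgene nor doxycycline. Line, doxycycline and treatment therefore cannot be told apart in differences of steps. Mitochondrial ribosomal RNA took 0.437% to 1.35% of the induced libraries. It took 11.4% to 14.3% of the CHIR99021 and 6.58% to 16.3% of the Wnt3a libraries of these hours. The difference of the steps was called for 453 genes (1.86%), 181 with the higher and 272 with the lower value in induced cells. It gave 207 genes without 24 h replicate 2 and 264 without 8 h replicate 1 of the induced cells, and 265, 231 and 194 without CHIR99021 24 h replicate 1, 24 h replicate 2 and 8 h replicate 1. The list of WNT feedback genes and direct targets gave 5 of 25. DKK1 went from 1.70 and 1.09 CPM at 8 h to 31.3 and 27.8 at 24 h with CHIR99021, against 1.66 and 1.08 to 3.84 and 3.92 in induced cells, a difference of -2.97 ± 0.56 (adjusted p = 0.00515, edgeR) that was not called without induced 8 h replicate 1 (-2.49). NOTUM, a secreted enzyme that inactivates WNT proteins, differed by -3.69 ± 0.38, and APCDD1 by 1.31 ± 0.24. TNFRSF19 (-1.62) and TCF7L2 (1.13) were the others; TCF7L2 lost its call without any 1 of 6 libraries (0.77 to 1.26), all but induced 8 h replicate 1 and CHIR99021 8 h replicate 2. Of the 24 streak genes, 5 were called and all 5 had the lower step in induced cells: T, MIXL1, NODAL, FGF8 and FGF4. T reached 74.0 and 66.1 CPM at 24 h of CHIR99021 from 5.69 and 6.78 at 8 h (difference -2.15 ± 0.29, adjusted p = 3.29e-05, edgeR), and MIXL1 148 and 148 CPM from 10.4 and 30.5 (-2.26 ± 0.53). NODAL went from 18.0 and 31.8 CPM to 48.7 and 45.5 with CHIR99021 (difference -1.45 ± 0.31). The call of MIXL1 was lost without any 1 of 6 of the 8 libraries (-2.32 to -1.65), all but induced 24 h replicate 1 and CHIR99021 8 h replicate 2. That of NODAL was lost without induced 24 h replicate 2 (-1.41), induced 8 h replicate 2 (-1.28) or CHIR99021 8 h replicate 1 (-1.09), and that of FGF4 (-3.24) without induced 8 h replicate 1 (-3.19) or CHIR99021 8 h replicate 1 (-3.22).

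CDX2 rose in both. It went from 8.60 and 9.44 CPM to 53.2 and 41.4 with CHIR99021. The difference of the steps, -0.19 ± 0.37, did not pass (adjusted p = 0.928, edgeR). The hypoxia and glycolysis list gave 10 of 22 called, 9 with the lower value in induced cells. LDHA fell by 0.45 in induced cells and changed by 0.58 with CHIR99021, PGK1 by 0.76 against a change of 0.28 and ENO2 by 0.70 against a change of 0.81, with differences of -1.03 ± 0.17, -1.05 ± 0.16 and -1.51 ± 0.19. CDH2 differed by -1.07 ± 0.16: it reached 149 and 145 CPM with CHIR99021. No member of the G2 and mitosis, histone, ribosomal protein or HOX lists was called in this comparison, and 1 gene of S phase was (SLBP, -0.59, lost without any 1 of the 8 libraries, -0.63 to -0.54).

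Against Wnt3a, 2020 genes (8.31%) differed in the step, 1215 with the higher and 805 with the lower value in induced cells. It gave 1313, 1215 and 1157 genes without induced 24 h replicate 1, 24 h replicate 2 and 8 h replicate 1, and 1260, 1117, 1155 and 1266 without Wnt3a 24 h replicate 1, 24 h replicate 2, 8 h replicate 1 and 8 h replicate 2. The share of higher calls, 60.1%, was 48.3% with RLE size factors and 47.0% with scaling on protein-coding genes. T fell with Wnt3a from 4.81 and 5.62 CPM to 1.36 and 1.41, where it rose in induced cells (difference 3.26 ± 0.34, adjusted p = 2.02e-07, edgeR). CDX2 went from 1.25 and 1.52 CPM to 0.0649 and 0.0426 with Wnt3a. FST fell from 190 and 189 CPM to 12.4 and 16.8 with Wnt3a (difference 4.38 ± 0.23, adjusted p = 3.89e-13, edgeR). Of 16 histone genes 11, of 23 genes of G2 and mitosis 10 and of 25 cholesterol genes 9 had the higher value in induced cells and none the lower. Of 15 immediate early genes 10, and of 17 FGF and ERK genes 7, had the lower value and none the higher. These list counts were not computed with 1 library left out. The difference of HMMR (0.70), of the G2 and mitosis list, lost its call without induced 24 h replicate 1 or 8 h replicate 1. It was also lost without any 1 of the Wnt3a libraries (0.58 to 0.75 over all these). SLC1A1 rose in all 3 treatments, by 3.29, 2.95 and 2.79, and UHRF1 changed by -1.39, -1.49 and -1.50.

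**Figure D4:**
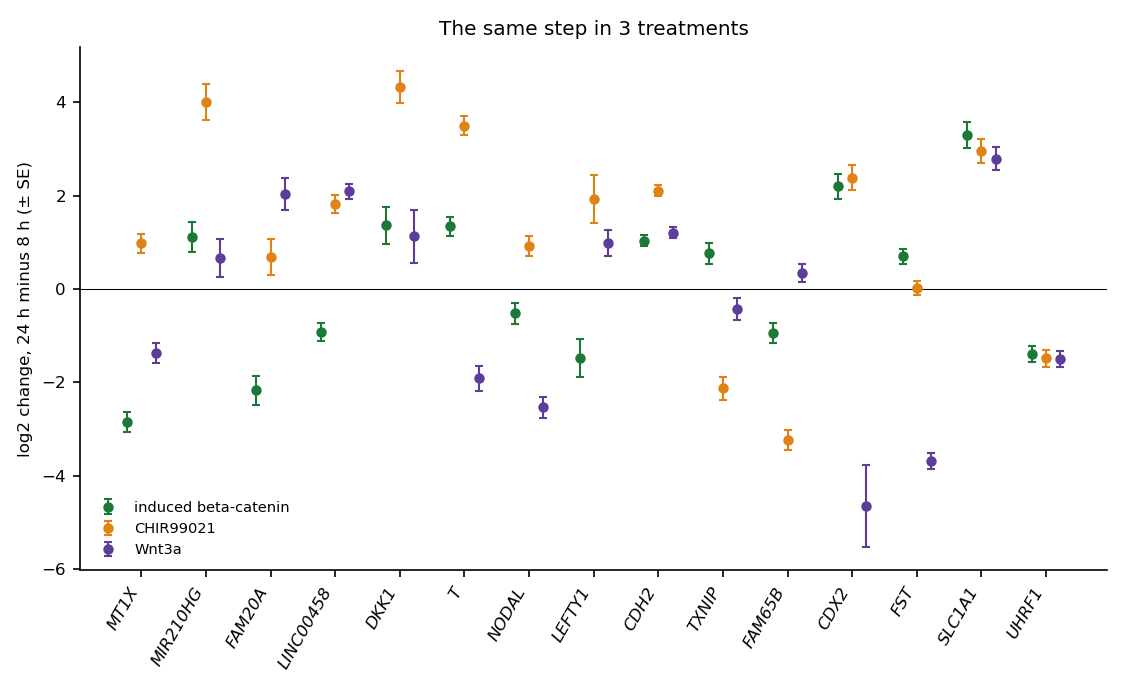
Log2 change, 24 h minus 8 h, with its standard error from edgeR (y axis), for 15 genes (x axis) in induced beta-catenin cells (green), CHIR99021 (orange) and Wnt3a (violet). T is at 1.34, 3.50 and -1.92, and SLC1A1 and UHRF1 lie close together in the 3 treatments.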

How the data were processed

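Total RNA was sequenced at each hour, and the deposited table holds 1 value per gene and library. Reads went through kallisto 0.43.0, per the submitters' processing notes, and the authors' values are estimated counts (expected counts); the sources used here give no build or annotation. The deposited values are multiples of 1 constant per library (0.265 to 6.58, geometric mean 1), so each library was divided by its commonest value above 0 and rounded to whole numbers; of values up to 20 counts, 57.5% to 81.4% per library were whole within 0.1 before rounding. Libraries then held 2.45 to 65.7 M (1e6) counts. The 2 Wnt3a libraries of 72 h were identical and counted as 1, which left 37.

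edgeR 4.0.16 (R 4.3.3) was fitted to all 37 libraries with 1 mean for each of 19 groups (18 residual degrees of freedom), TMM scaling, its default filter on low counts and Benjamini-Hochberg adjustment. The fit was tested on simulated data. Changes at 24 h of induction were set only in genes with a mean above 1 CPM, and all other genes kept 1 mean over all libraries. Far fewer genes thus changed than were called in the data, and the rates do not cover genes of lower level. For the step the fit called 66 of 100 changes of 2-fold and 92 of 100 of 4-fold, with 7 false calls. For the difference from CHIR99021 it called 34 of 100 and 83 of 100, with 8 false calls, so a gene not called there can still differ. DESeq2 1.42.0, other scalings and filters, leaving out each library and a replicate block were alternatives. Whether the replicate numbers pair the libraries is not given in the sources used here, and the main fit did not pair them.

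Gene lists and members were chosen with earlier results of these data known. Named were the 12 largest called changes per direction (5 CPM or more on average in the higher group, groups not overlapping, protein-coding or lncRNA), up to 4 called members of each list per direction (otherwise the 3 largest), 11 genes always given, and the 5 largest differences of steps per direction under the same limits; other list members are named beside their counts, after their values were seen. Some genes that the rule picks are not reported here. Gene types come from GENCODE v29. Promoters matched 13551 of the 24304 tested genes by symbol.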

Additional observations from a re-analysis of the deposited data

Results flagged for a closer look

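The step from 8 h to 24 h differed between induced beta-catenin and CHIR99021 for 453 genes, and between induced beta-catenin and Wnt3a for 2020 genes, each by edgeR's test of the difference itself. The values below are log2 differences of the steps, induced cells minus the other treatment.

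Against CHIR99021 lower values were those of the metallothionein genes MT1X (-3.84) and MT1G (-2.71), the non-coding RNAs MIR210HG (-2.88) and LINC00458 (-2.75), and FAM20A (-2.87), a secretory-pathway pseudokinase. MT1X went from 113 and 113 CPM to 16.1 and 15.3 in induced cells and from 33.6 and 32.2 CPM to 56.9 and 72.3 with CHIR99021. Higher values were those of TXNIP (2.89), a thioredoxin-binding protein, UBALD2 (2.60), FAM65B (2.29) and MXD4 (2.26), a partner of MAX. UBALD2 was not called without any 1 of 7 of the 8 libraries (1.96 to 2.91), all but CHIR99021 24 h replicate 1. TXNIP went from 56.8 and 54.7 CPM to 91.0 and 99.1 in induced cells and from 68.0 and 49.7 CPM to 19.3 and 9.19 with CHIR99021.

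Against Wnt3a higher values were those of CDX2 (6.84), HOTAIRM1 (5.70), FST (4.38) and RP11-82L7.4 (4.13). CDX2 had very few counts at 24 h of Wnt3a, so the size of its difference is uncertain. That of HOTAIRM1 ranged from 5.08 to 8.20 over the alternatives. Lower values were those of TXNRD2 (-4.29), a mitochondrial thioredoxin reductase, FAM20A (-4.21), ERVK-28 (-4.02) and NPTX1 (-3.90), a neuronal pentraxin. TXNRD2 fell from 5.40 and 7.96 CPM to 0.959 and 1.41 in induced cells and went from 13.8 and 13.9 CPM to 47.9 and 58.0 with Wnt3a. The difference of NPTX1 was not called without induced 24 h replicate 2 (-3.18), Wnt3a 24 h replicate 2 (-3.78), Wnt3a 8 h replicate 1 (-3.68) or Wnt3a 8 h replicate 2 (-4.35), and it lost its call for the step in induced cells without 24 h replicate 2 (-1.62) or 8 h replicate 2 (-1.95).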

How the results depend on the processing

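Calls for 24 h against 8 h numbered 1457 to 1908 with 1 of the 4 libraries left out, against 2947, and 2408 to 3570 under the other alternatives (DESeq2, other scalings and filters, fewer groups in the fit, the deposited values as they stand, ribosomal RNA genes removed). The difference from the CHIR99021 step gave 922 genes with DESeq2 and 701 with only the arms compared, against 453, and 194 to 352 with 1 library left out. That from the Wnt3a step gave 1117 to 1630 with 1 library left out, against 2020. The 16 h contrast gave 1042 genes with DESeq2 and 293 with only the arms compared, against 496, and 80 to 510 with 1 library left out. The cause was not tested where the setting keeps all libraries. The share of higher calls against Wnt3a was 60.1%, and 47.0% to 53.5% with RLE size factors, protein-coding scaling, only the groups or arms compared, ribosomal RNA genes removed, a filter of at least 1 CPM or DESeq2. Without 3 libraries in doubt outside the comparison, an alternative added after seeing the data, 24 h against 8 h gave 3367 genes. With the replicate block the counts were 2829, 399, 1889 and 449. Deviations of same-numbered libraries of 8 h and 24 h had a correlation of 0.00211 over all tested genes (-0.0516 to 0.0316 over 15 pairs of hours). Such a value over all genes cannot exclude that same-numbered libraries share a culture or batch. Mitochondrial ribosomal RNA in replicates 1 and 2 was 1.35% and 0.627% at 8 h and 1.23% and 0.437% at 24 h. Whether the numbers mark pairs is not known. Signs reversed for values that were not called: NANOG ranged from -0.38 to 0.17 with 1 library left out (0.17 without 8 h replicate 2), and over the same settings the differences from CHIR99021 were -0.46 to 0.27 for CDX2 and -0.062 to 1.05 for SLC1A1. The reversals came without induced 8 h replicate 1 for CDX2 (0.27), without induced 24 h replicate 2 also for CDX2 (0.05), and without CHIR99021 8 h replicate 2 for SLC1A1. Few counts outside ribosomal RNA in 8 h replicate 2 and 24 h replicate 1 limit low genes most.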

Other observations

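Of 15 genes of the oxidative stress response that NRF2 is known to drive, 7 were called lower and none higher, with a median of -0.38. The list was chosen after its values were seen and is a description; SLC7A11 is also in the ATF4 list. HMOX1, which degrades haem, went from 19.99 and 20.8 CPM to 4.03 and 4.22 (-2.30 ± 0.21), and SQSTM1 (p62), an autophagy receptor, from 217 and 198 CPM to 45.8 and 46.6 (-2.17 ± 0.17). At 0 h HMOX1 had been at 4.41 and 6.85 CPM and SQSTM1 at 67.0 and 72.4. NQO1, GCLM, SLC7A11, SRXN1 and FTL were the other genes called, at -0.69, -0.67, -0.78, -0.72 and -0.33. For GCLM, SLC7A11 and SRXN1 both 8 h libraries lay above both 0 h libraries, and for NQO1 and FTL they did not. The median of the same genes over this step was -0.59 with CHIR99021 and -0.83 with Wnt3a, and none was called for a difference from CHIR99021. Against Wnt3a the difference of the steps was called for NQO1 (0.87), TXNRD1 (0.60), PGD (0.82) and SQSTM1 (-1.21).

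Of 7 metallothionein genes and the zinc exporter SLC30A1, also chosen after their values were seen, 6 metallothionein genes were called lower, from -1.15 for MT1F to -2.86 for MT1X, and SLC30A1 higher. SLC30A1 went from 22.1 and 29.9 CPM to 73.7 and 57.1 (1.34 ± 0.26, adjusted p = 0.000870, edgeR). It had been at 63.2 and 82.5 CPM at 0 h and was at 16.4 and 13.6 at 16 h. The median of the 8 was -1.79 in induced cells, -0.29 with CHIR99021 and -2.07 with Wnt3a.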
